A study of Mus musculus with 12 samples.

Results

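The genes described here are the TEAD transcription factors Tead1, Tead2, Tead3 and Tead4, their co-activators Yap1 and Wwtr1 (the gene of TAZ), and Vgll4. They were taken by symbol from bulk RNA sequencing counts of mouse brain tissue, and all 7 symbols were found among the 24421 in the files. TEAD proteins bind DNA but activate little transcription by themselves. YAP1 and TAZ enter the nucleus when the Hippo kinases LATS1 and LATS2 do not phosphorylate them, dock on a TEAD and switch on genes of growth and tissue repair. VGLL4 binds the same surface of TEADs, competes with YAP1 and TAZ, and lowers the output of the complex.

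The 12 libraries formed 4 groups of 3. The libraries of the YAP1-MAMLD1-dR3R1 group, the YAP1-FAM118B group and the YAP1-TFE3 group came from whole brain tumours grown after injecting RCAS virus that carries the named fusion of YAP1 to a partner protein. Of the partners, MAMLD1 is a co-activator related to mastermind, FAM118B is found in Cajal bodies of the nucleus, and TFE3 is a transcription factor that turns on lysosomal genes. The labels do not explain the suffix dR3R1. The naive group was normal cortex of mice that received no injection. RCAS is an avian retroviral vector that infects only mammalian cells given its receptor TVA. The labels name neither the strain and age of the mice nor the cells that carried this receptor, and an injected group with a control virus was not analysed here. The series title asks what the fusions do alike.

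Total counts per library lay between 19850220 and 24760814, so that 3 counts stood for 0.117 to 0.145 CPM. CPM gives each gene's count relative to the TMM-scaled total of its library, where TMM evens out composition differences, and this limit covers counting error alone. No label says whether replicates were different animals, so the p-values describe the spread among these samples, part of which may be technical. For naive samples the tissue label is a tumour and the source label normal cortex, and the labelled extraction is from cell cultures while the design speaks of frozen tumours. YAP1-FAM118B replicate 2 and naive replicate 2 each held both Xist, the RNA of the inactive X chromosome, and the Y-linked Ddx3y (162 and 29.9 CPM in YAP1-FAM118B replicate 2, 25.6 and 49.3 CPM in naive replicate 2). Xist was also at 493 CPM in YAP1-MAMLD1-dR3R1 replicate 1, 320 in YAP1-FAM118B replicate 1 and 305 in naive replicate 3, where Ddx3y was at most 0.044 CPM. The other 7 libraries, among them all of YAP1-TFE3, had at most 0.434 CPM of Xist and 62.9 to 87.8 CPM of Ddx3y. The libraries of each group other than YAP1-TFE3 thus differed in these sex-linked RNAs and do not all come from 1 animal, and the part of sex in the YAP1-TFE3 results was not tested. Without the 2 libraries that held both RNAs, 1 call on the 7 genes was lost, that of Wwtr1 between YAP1-FAM118B and YAP1-MAMLD1-dR3R1 tumours.

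The TEAD genes lie on chromosome 7 (Tead1, 112679318 to 112906807, plus strand, and Tead2, 45215753 to 45233644, plus strand), chromosome 17 (Tead3, 28331671 to 28350817, minus strand) and chromosome 6 (Tead4, 128224288 to 128300823, minus strand) of build GRCm38 in the GENCODE M21 annotation. Yap1 lies on chromosome 9 (7931999 to 8004596), Wwtr1 on chromosome 3 (57455649 to 57575910) and Vgll4 on chromosome 6 (114860628 to 114969994), all on the minus strand. Exons of other genes overlapped 13 bases of Tead2 and 116 bases, or 1.25%, of Yap1, and none of the exons of the other members.

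Upstream sequences of these genes were searched for the core of the TEAD binding motif, GGAATG or CATTCC on the strand of the gene. Promoter sequences of GRCm38.p6 from RefSeq were available for 5 of the 7 genes, Tead1 and Tead4 being absent from the table. Within the 250 bases before an annotated start, Tead3, Yap1, Wwtr1 and Vgll4 held a match and Tead2 held none. Some genes have several starts, and of the 8 windows of these 5 genes 6 held a match, among them both overlapping windows of Wwtr1, which share 1 match. A match was held by 12.6% of all 32851 such windows in the table, and by 14.4% of its 27025 genes in any window. A second Tead3 window held CATTCC 123 and 114 bases before its start, but 217 of its 250 bases are annotated exon. The third Tead3 window, with all 250 bases exonic, held no match. A match describes the letters and is no evidence of binding, and its part in the levels of these genes was not tested. The stretches below hold no annotated exon and lie on the minus strand, at chr17:28350952-28351017, chr9:8004702-8004767, chr3:57576011-57576076 and chr6:114969250-114969315, with the match in capitals 182, 141, 136 and 82 bases before the start in the order of the lines. Those of Tead3, Yap1 and Wwtr1 lie beyond the outermost end of the gene in GENCODE M21, whereas that of Vgll4 lies inside the gene, upstream of another start in RefSeq.
Tead3: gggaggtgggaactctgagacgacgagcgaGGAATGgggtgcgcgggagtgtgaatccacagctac
Yap1: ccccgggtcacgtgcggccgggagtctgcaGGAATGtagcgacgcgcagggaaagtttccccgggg
Wwtr1: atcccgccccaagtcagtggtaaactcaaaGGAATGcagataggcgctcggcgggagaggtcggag
Vgll4: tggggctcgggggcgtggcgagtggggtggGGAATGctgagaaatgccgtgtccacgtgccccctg

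All 7 genes were higher in the tumours of each fusion than in naive cortex (edgeR quasi-likelihood test, Benjamini-Hochberg adjusted p under 0.05 over 16364 genes tested). Over all genes tested, 34.4% were called higher with YAP1-MAMLD1-dR3R1, 21.3% with YAP1-FAM118B and 40.6% with YAP1-TFE3. The median log2 fold change of the 7 genes was 2.31, 2.44 and 2.92 in that order of the fusions, while that of all genes was 0.06, −0.05 and 0.23. The values of every tumour library lay above every naive library for 6 of the 7 genes in YAP1-MAMLD1-dR3R1, where 38% of all genes did so, and for all 7 in YAP1-FAM118B (29.7%) and YAP1-TFE3 (42.5%). All 7 genes passed the filter on low counts, but Tead4 did so through tumour libraries, since naive cortex held 4, 24 and 14 counts of it. The Tead4 calls with YAP1-MAMLD1-dR3R1 and YAP1-FAM118B were lost in 5 and 3 of 22 alternative settings. The 3 comparisons share the naive libraries.

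**Figure D1:**
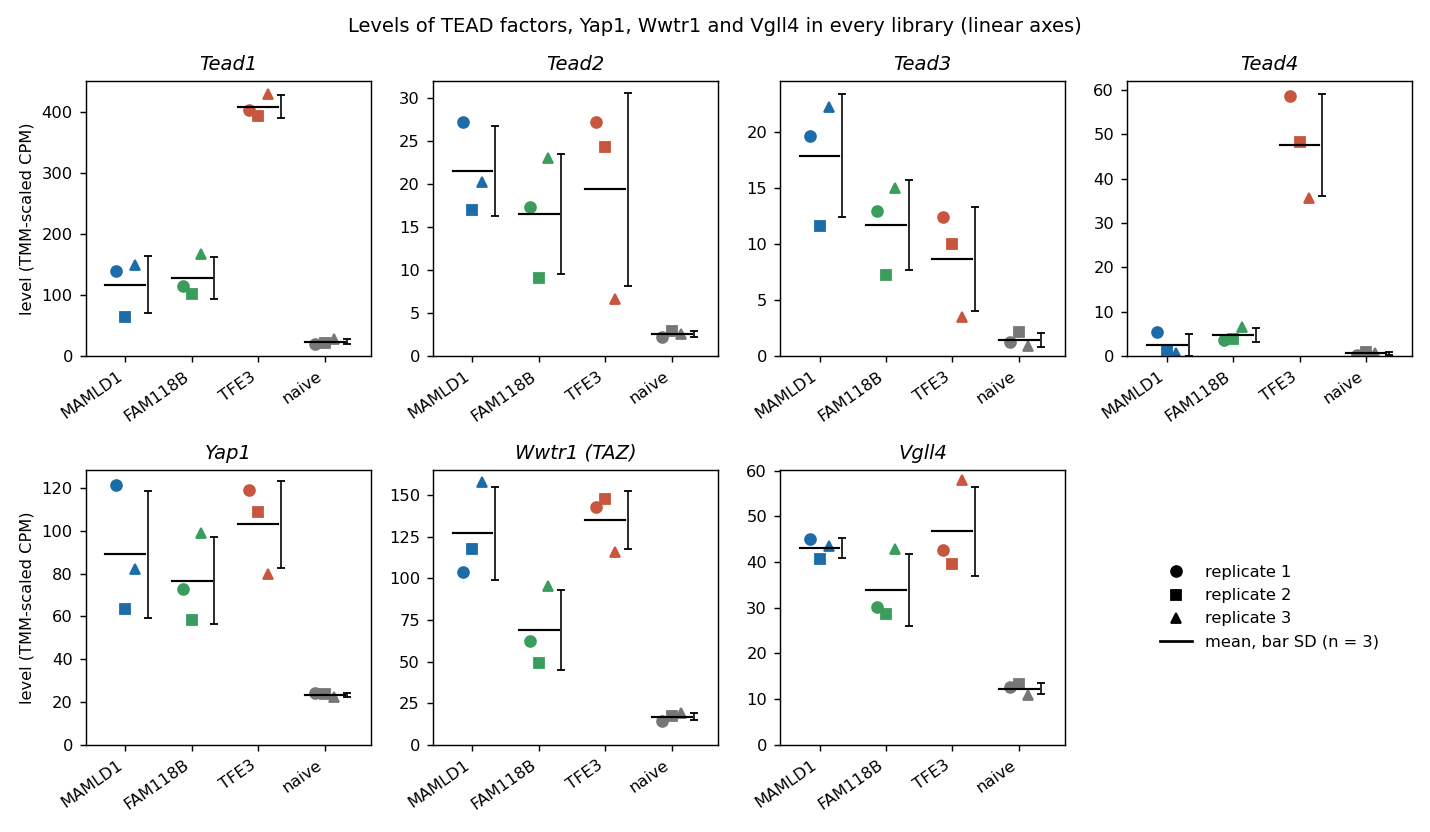
Levels of the 7 genes in TMM-scaled CPM (linear axes, a scale per gene) in each of the 12 libraries, with markers for replicates 1 to 3, a line for the group mean and a bar for the SD (n = 3). Tead1 and Tead4 stand highest in YAP1-TFE3 tumours, at 408 and 47.5 CPM on average, whereas the tumour groups overlap for Yap1 and Vgll4.

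Summed markers of several cell types also differed between the groups. The summed level of 8 neuron markers was 523 to 1290 CPM in YAP1-MAMLD1-dR3R1, 3590 to 5420 in YAP1-FAM118B, 97 to 965 in YAP1-TFE3 and 6300 to 9460 in naive libraries. For 8 markers of microglia and macrophages the ranges were 4800 to 7390, 1420 to 1830, 1210 to 3790 and 186 to 245 CPM, and for 8 of fibroblasts and pericytes 3310 to 5430, 3610 to 15000, 3180 to 6890 and 156 to 226 CPM, in the same order of groups. Sums of 8 astrocyte markers were 4120 to 6580, 1870 to 4020, 1300 to 2990 and 3540 to 4540 CPM, of 8 oligodendrocyte markers 2130 to 4210, 2170 to 4680, 604 to 918 and 5570 to 11200 CPM, and of 8 endothelial markers 369 to 489, 136 to 271, 165 to 295 and 127 to 145 CPM. The markers of a list did not all move alike. Against naive, 6, 4 and 3 of 8 fibroblast and pericyte markers were called higher in the fusions in that order, and none lower. Of the astrocyte markers, 1, 0 and 3 were called higher and 2, 1 and 4 lower. Neuron markers were called lower for 5, 1 and 7 of 8, and none higher. Of the oligodendrocyte markers, 1, 1 and 0 were called higher and 4, 2 and 7 lower. Microglia and macrophage markers were called higher for 8, 7 and 7 of 8, and none lower. Endothelial markers were called higher for 6, 1 and 3 of 8, and lower for 0, 0 and 1. Over all genes, 34.4, 21.3 and 40.6% were called higher and 28.8, 8.45 and 30% lower. No marker was at 0 in a whole group. In bulk tissue, fewer cells of a type and less RNA per cell cannot be told apart, and the part of cell type composition in the results on the 7 genes was not tested.

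Tead1, the most abundant TEAD per length in every library, had 139, 63.2 and 149 CPM in replicates 1, 2 and 3 of YAP1-MAMLD1-dR3R1 and 115, 102 and 168 CPM in YAP1-FAM118B. It had 403, 393 and 429 CPM in YAP1-TFE3, against 20.5, 22.2 and 28 CPM in naive cortex. All tumour libraries were above all naive ones, and the YAP1-TFE3 libraries were above all other tumours. The log2 fold change against naive was 2.31 ± 0.31 (SE) in YAP1-MAMLD1-dR3R1 (edgeR adjusted p = 0.000165), 2.44 ± 0.32 in YAP1-FAM118B (edgeR adjusted p = 0.000356) and 4.12 ± 0.34 in YAP1-TFE3 (edgeR adjusted p = 6.12e-06). YAP1-TFE3 exceeded YAP1-MAMLD1-dR3R1 by a log2 difference of 1.80 ± 0.31 (edgeR adjusted p = 0.00144) and YAP1-FAM118B by 1.67 ± 0.31 (edgeR adjusted p = 0.00157). YAP1-FAM118B and YAP1-MAMLD1-dR3R1 were not told apart, with a difference of 0.13 and a 95% interval of −0.53 to 0.80 (edgeR adjusted p = 0.765).

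Tead4 showed the greatest contrast between tumour groups of the 7 genes. YAP1-MAMLD1-dR3R1 libraries had 5.36, 1.31 and 0.798 CPM and YAP1-FAM118B libraries 3.7, 3.82 and 6.51 CPM. YAP1-TFE3 libraries had 58.6, 48.2 and 35.7 CPM, against 0.164, 1.01 and 0.616 CPM in naive cortex. Every YAP1-TFE3 library was thus far above all others, every YAP1-FAM118B library was above naive, and YAP1-MAMLD1-dR3R1 replicate 3 was below naive replicate 2. Against naive, the log2 fold change of Tead4 was 6.31 ± 0.84 in YAP1-TFE3 (edgeR adjusted p = 0.000105). The excess was 2.96 ± 0.75 in YAP1-FAM118B (edgeR adjusted p = 0.015) and 2.07 ± 0.74 in YAP1-MAMLD1-dR3R1 (edgeR adjusted p = 0.033).

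Both of the smaller Tead4 calls were lost when single libraries were left out. The YAP1-MAMLD1-dR3R1 value fell to 0.82 without replicate 1 of that group (edgeR adjusted p = 0.253), and the call was also lost without naive replicate 1 (1.60, edgeR adjusted p = 0.109) or 3 (2.09, 0.0765), with the replicate number as a block (1.88, 0.0841) and when only these 2 groups were fitted (2.06, 0.0987). The YAP1-FAM118B call crossed the threshold without its replicate 3 (2.65, edgeR adjusted p = 0.0522) and without naive replicate 1 (2.58, 0.0521) or 3 (2.99, 0.0503), with fold changes close to the 2.96 of all libraries. Without naive replicate 2, the Tead4 fold changes against naive were 2.68 with YAP1-MAMLD1-dR3R1, 3.58 with YAP1-FAM118B and 6.92 with YAP1-TFE3, and the last was 5.67 without naive replicate 1. Among the tumours, YAP1-TFE3 exceeded YAP1-MAMLD1-dR3R1 by 4.24 ± 0.75 (edgeR adjusted p = 0.00173) and YAP1-FAM118B by 3.35 ± 0.72 (edgeR adjusted p = 0.00355), and these calls held under each of the 22 alternative settings. The size of the first was less certain, at 5.49 without YAP1-MAMLD1-dR3R1 replicate 1 and 3.64 without its replicate 3, while the second lay between 2.94 and 3.66 without single libraries. YAP1-FAM118B minus YAP1-MAMLD1-dR3R1 was 0.90 with an interval of −0.61 to 2.41 (edgeR adjusted p = 0.338), or 2.15 without YAP1-MAMLD1-dR3R1 replicate 1 (edgeR adjusted p = 0.0273).

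Tead2 was higher in the tumours of each fusion than in naive cortex. Its level was 27.2, 17 and 20.3 CPM in YAP1-MAMLD1-dR3R1, 17.3, 9.11 and 23 CPM in YAP1-FAM118B and 27.2, 24.4 and 6.64 CPM in YAP1-TFE3, against 2.26, 2.89 and 2.55 CPM in naive cortex. Tumours and naive did not overlap, and the tumour groups overlapped each other. The log2 fold changes against naive, in that order, were 3.06 ± 0.52, 2.68 ± 0.51 and 2.92 ± 0.52 (edgeR adjusted p of 0.000646, 0.00352 and 0.000639). The differences between fusions did not pass, with 95% intervals of −1.44 to 0.68 for YAP1-FAM118B minus YAP1-MAMLD1-dR3R1, −1.20 to 0.91 for YAP1-TFE3 minus YAP1-MAMLD1-dR3R1 and −0.82 to 1.30 for YAP1-TFE3 minus YAP1-FAM118B. These intervals are wide enough to hold more than a doubling, so they do not show that the fusions act alike.

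Tead3 had its highest group mean in YAP1-MAMLD1-dR3R1 tumours. It stood at 19.7, 11.6 and 22.2 CPM there, at 12.9, 7.22 and 15 CPM in YAP1-FAM118B and at 12.4, 10 and 3.53 CPM in YAP1-TFE3, against 1.27, 2.18 and 0.88 CPM in naive cortex. The tumour groups overlapped each other and none reached down to naive. Against naive the log2 fold changes were 3.62 ± 0.55, 3.01 ± 0.54 and 2.58 ± 0.53 (edgeR adjusted p of 0.00032, 0.00233 and 0.00155), and the second was 3.69 without both libraries that held Xist and Ddx3y. YAP1-TFE3 minus YAP1-MAMLD1-dR3R1 was −1.04 with an interval of −2.14 to 0.06 (edgeR adjusted p = 0.118). The intervals were −1.70 to 0.48 for YAP1-FAM118B minus YAP1-MAMLD1-dR3R1 and −1.53 to 0.66 for YAP1-TFE3 minus YAP1-FAM118B.

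Yap1, the mouse gene of the co-activator that all 3 fusions contain, was at 122, 63.4 and 82 CPM in YAP1-MAMLD1-dR3R1, 72.9, 58.5 and 98.8 CPM in YAP1-FAM118B and 119, 109 and 79.7 CPM in YAP1-TFE3, against 24.3, 23.6 and 22.3 CPM in naive cortex. All tumour libraries were above naive, and the tumour groups overlapped. Against naive the log2 fold changes were 1.93 ± 0.27, 1.71 ± 0.27 and 2.13 ± 0.27, all of them called. Whether reads of the viral fusion were counted on mouse Yap1 was not tested. No difference of Yap1 between tumour groups passed, and the 95% intervals on the log2 scale were −0.79 to 0.36 for YAP1-FAM118B minus YAP1-MAMLD1-dR3R1, −0.37 to 0.78 for YAP1-TFE3 minus YAP1-MAMLD1-dR3R1 and −0.16 to 1.00 for YAP1-TFE3 minus YAP1-FAM118B.

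Wwtr1, whose product TAZ acts beside YAP1 on TEADs, had its lowest tumour levels in YAP1-FAM118B, with calls that some settings below lost. Its level was 104, 118 and 158 CPM in YAP1-MAMLD1-dR3R1, 62.1, 49.3 and 95.4 CPM in YAP1-FAM118B and 143, 148 and 116 CPM in YAP1-TFE3, against 14.4, 17.5 and 19.1 CPM in naive cortex. The YAP1-FAM118B libraries lay below all other tumours and above naive. The log2 fold changes of Wwtr1 against naive were 2.90 ± 0.26, 2.02 ± 0.26 and 2.99 ± 0.27 in that order (edgeR adjusted p of 1.96e-05, 0.000321 and 9.1e-06).

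Among tumours, Wwtr1 was lower in YAP1-FAM118B than in YAP1-MAMLD1-dR3R1 by a log2 difference of −0.88 ± 0.25 (edgeR adjusted p = 0.0297), and higher in YAP1-TFE3 than in YAP1-FAM118B by 0.97 ± 0.25 (edgeR adjusted p = 0.00848). The first call was lost in 11 of 22 alternative settings, with differences between −1.18 and −0.61 and an edgeR adjusted p of up to 0.17, among them the fit that left out both libraries with Xist and Ddx3y counts (−0.68, edgeR adjusted p = 0.125). It was lost when any of YAP1-MAMLD1-dR3R1 replicates 2 or 3, YAP1-FAM118B replicates 1 or 2, YAP1-TFE3 replicates 1 or 2 or naive replicate 1 was left out. The second was lost in 5 of 22, with differences between 0.60 and 1.28. The highest edgeR adjusted p was 0.118, without YAP1-TFE3 replicate 2, and it was 0.0914 without YAP1-TFE3 replicate 1, 0.0573 without YAP1-MAMLD1-dR3R1 replicate 2 and 0.0509 without naive replicate 1. YAP1-TFE3 minus YAP1-MAMLD1-dR3R1 was 0.10 with an interval of −0.45 to 0.64 (edgeR adjusted p = 0.775).

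Vgll4, the competing co-repressor, was raised in all tumours. It was at 45, 40.6 and 43.6 CPM in YAP1-MAMLD1-dR3R1, 30.1, 28.7 and 42.9 CPM in YAP1-FAM118B and 42.7, 39.5 and 57.9 CPM in YAP1-TFE3, against 12.6, 13.4 and 11 CPM in naive cortex. All tumour libraries exceeded naive, and the tumour groups overlapped. The log2 fold changes against naive were 1.80 ± 0.19, 1.46 ± 0.19 and 1.92 ± 0.20 (edgeR adjusted p of 4.54e-05, 0.000405 and 1.97e-05). YAP1-TFE3 minus YAP1-FAM118B was 0.46 with an unadjusted 95% interval of 0.04 to 0.88, and its edgeR adjusted p was 0.0623, or 0.0143 without YAP1-FAM118B replicate 3, where the difference was 0.67. The other intervals were −0.76 to 0.07 for YAP1-FAM118B minus YAP1-MAMLD1-dR3R1 and −0.30 to 0.53 for YAP1-TFE3 minus YAP1-MAMLD1-dR3R1.

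Between fusions, calls on the 7 genes fell on Tead1, Tead4 and Wwtr1. In YAP1-FAM118B against YAP1-MAMLD1-dR3R1, Wwtr1 alone was called, and it was lower, as were 13.5% of all genes tested. In YAP1-TFE3 against YAP1-MAMLD1-dR3R1, Tead1 and Tead4 were called higher, against 22.6% of all genes. In YAP1-TFE3 against YAP1-FAM118B, Tead1, Tead4 and Wwtr1 were called higher, against 28% of all genes. Whether the counts among the 7 genes exceed these shares was not tested. The genes without overlap between the groups were the same in each pair, and the shares of all genes without overlap in that direction were 25%, 27% and 31.4%. These pairs share tumour libraries. The split of all calls into higher and lower in the YAP1-TFE3 pairs depended on the scaling. Against YAP1-MAMLD1-dR3R1, 57.2% of called genes were higher with TMM, 45.7% with upper-quartile factors and 42% with library size alone, and against YAP1-FAM118B 54.2% with TMM and 41.3% with library size alone. No scaling ended a call on the 7 genes.

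**Figure D2:**
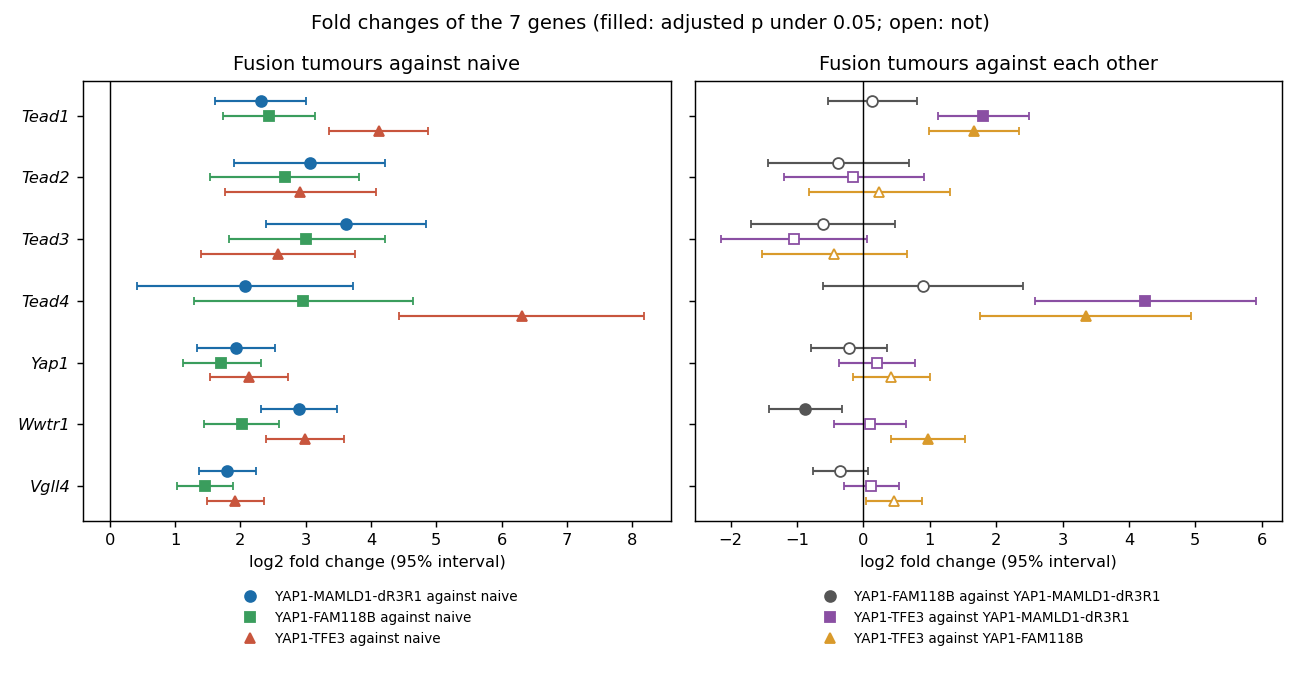
Log2 fold changes of the 7 genes with 95% intervals from edgeR, for each fusion against naive cortex (left) and for pairs of fusions, first named over second (right), where filled markers have an adjusted p under 0.05. All points on the left lie above 0, and on the right the filled points are Tead1 and Tead4 in YAP1-TFE3 against both other fusions and Wwtr1 in YAP1-FAM118B against YAP1-MAMLD1-dR3R1 (−0.88) and in YAP1-TFE3 against YAP1-FAM118B (0.97).

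Levels of different genes were compared per kilobase of exon, with exonic lengths of 13.57 kb for Tead1, 4.79 kb for Tead2, 6.71 kb for Tead3, 3.60 kb for Tead4, 9.26 kb for Yap1, 4.78 kb for Wwtr1 and 5.40 kb for Vgll4. The summed TEAD level was 16.5 ± 5.4 CPM per kb (SD, n = 3) in YAP1-MAMLD1-dR3R1 tumours, 15.9 ± 4.88 in YAP1-FAM118B and 48.6 ± 5.03 in YAP1-TFE3, against 2.65 ± 0.376 in naive cortex. YAP1-TFE3 libraries ranged from 43.5 to 53.5 CPM per kb and the other tumours from 10.3 to 21.2, without overlap. The summed level of Yap1 and Wwtr1 was 36.1 ± 5.31, 22.7 ± 7.18 and 39.4 ± 5.71 CPM per kb in the same order of tumours, against 6.08 ± 0.4 in naive cortex, and there YAP1-MAMLD1-dR3R1 and YAP1-TFE3 overlapped.

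The order of the TEAD paralogues per length was Tead1, Tead2, Tead3, Tead4 from high to low in all YAP1-MAMLD1-dR3R1 and YAP1-FAM118B libraries and in naive replicates 1 and 2. In naive replicate 3 Tead4 stood above Tead3 although its raw count was lower (14 against 20), so their order there depended on the length used. These neighbours are thus not separated in naive cortex. In all 3 YAP1-TFE3 libraries the order was Tead1, Tead4, Tead2, Tead3. There Tead4 reached 13.2 ± 3.19 CPM per kb (SD, n = 3), against 4.06 ± 2.33 for Tead2 and 1.29 ± 0.687 for Tead3, and the spreads of Tead2 and Tead3 met. In YAP1-TFE3 tumours Tead1 was at 30.1 ± 1.39 CPM per kb.

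Tead4 made up 30.5, 27.4 and 22.8% of the summed TEAD level in YAP1-TFE3 replicates 1, 2 and 3. It made up 7.31, 3.52 and 1.19% in YAP1-MAMLD1-dR3R1 and 6.83, 9.17 and 8.53% in YAP1-FAM118B, against 2.06, 9.84 and 5.91% in naive cortex. Only the YAP1-TFE3 libraries stood apart, and the other groups overlapped one another except that 2 of the 3 YAP1-MAMLD1-dR3R1 libraries lay below all YAP1-FAM118B libraries. Over the 4 groups the share differed beyond the spread of the libraries (exact permutation test of the F statistic, adjusted p = 0.008 over 7 quantities), and so it did among tumours alone (exact permutation test, adjusted p = 0.015). Groups of 3 against 3 cannot reach an exact p under 0.1, so pairs of groups were not tested.

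The shares of Tead2 and Tead3 were low in YAP1-TFE3 tumours although their levels there were above naive. All TEAD shares divide by the same TEAD sum, so higher Tead1 and Tead4 levels lower the shares of Tead2 and Tead3. The ratios to the TEADs given below divide by that sum too, so the tests on these quantities are not independent. Tead3 accounted for 14.4, 16.8 and 17.7% of the TEAD sum in YAP1-MAMLD1-dR3R1, 12.8, 9.29 and 10.5% in YAP1-FAM118B and 3.46, 3.05 and 1.21% in YAP1-TFE3, against 8.54, 11.4 and 4.52% in naive cortex. The YAP1-MAMLD1-dR3R1 libraries were the highest of all and the YAP1-TFE3 libraries the lowest, without overlap with any other group (exact permutation test over 4 groups, adjusted p = 0.00152, and over tumours, adjusted p = 0.0125). Tead2 accounted for 28.3 ± 5.9% (SD, n = 3) in YAP1-MAMLD1-dR3R1 tumours, 21.1 ± 4.07% in YAP1-FAM118B and 8.08 ± 4.23% in YAP1-TFE3, against 20.3 ± 1.65% in naive cortex. The YAP1-TFE3 libraries, at 10.6, 10.4 and 3.19%, were again below all others (exact permutation test over 4 groups, adjusted p = 0.00318, and over tumours, adjusted p = 0.015).

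Tead1 held 51.4 ± 6.69% of the TEAD sum in YAP1-MAMLD1-dR3R1 tumours, 59.9 ± 4.64% in YAP1-FAM118B and 62.5 ± 9.12% in YAP1-TFE3, against 65.6 ± 7.19% in naive cortex (SD, n = 3 each). These shares overlapped and did not pass (exact permutation test over 4 groups, adjusted p = 0.167). The size of a share depends on the length used. Per length of the longest coding sequence, Tead4 held 1.59% in YAP1-MAMLD1-dR3R1 tumours, 2.97% in YAP1-FAM118B and 9.99% in YAP1-TFE3, against 2.11% in naive cortex, and Tead1 held 73.4, 80.4, 84.4 and 83.9% in the same order. The tests on Tead2, Tead3 and Tead4 passed with either length (exact permutation test over 4 groups, adjusted p of 0.00364, 0.00182 and 0.00955 by coding length).

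**Figure D3:**
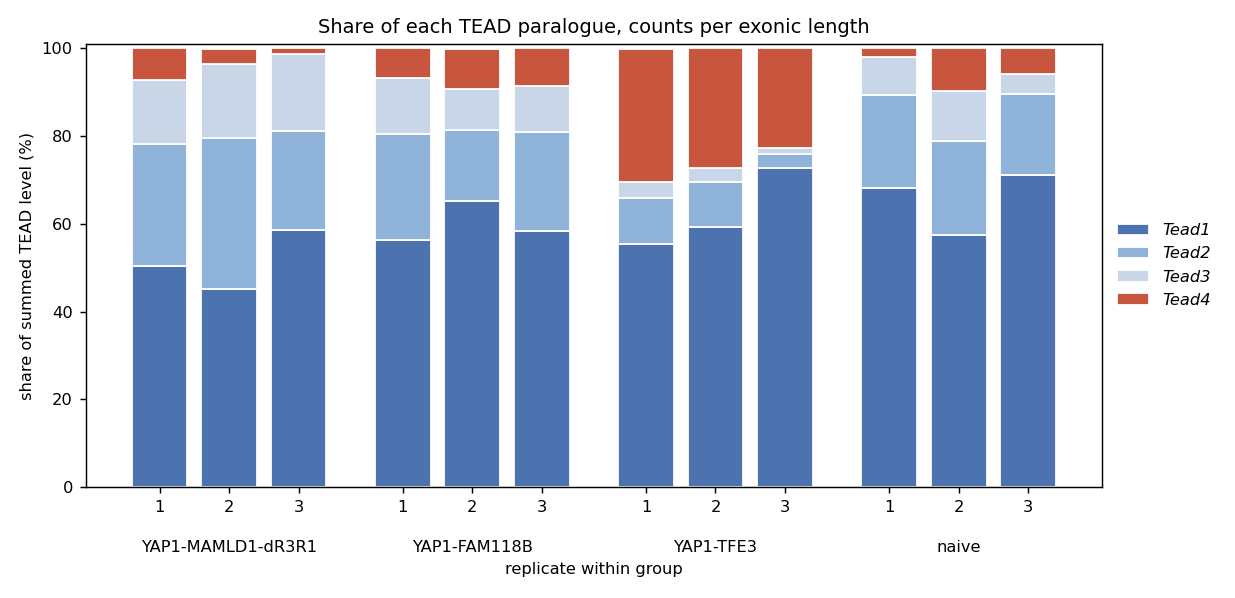
Share (%) of Tead1, Tead2, Tead3 and Tead4 in the summed TEAD level, as counts per exonic length, for each replicate of each group. The Tead4 part spans 22.8 to 30.5% in YAP1-TFE3 tumours and at most 9.84% in any other library.

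Wwtr1 was higher per length than Yap1 in all 12 libraries. It supplied 62.4, 78.3 and 78.9% of the summed co-activator level in YAP1-MAMLD1-dR3R1, 62.3, 62 and 65.1% in YAP1-FAM118B and 69.9, 72.4 and 73.8% in YAP1-TFE3, against 53.5, 59 and 62.4% in naive cortex. YAP1-TFE3 lay above naive and YAP1-FAM118B, while the other groups met or overlapped. Whether the Yap1 part of this share holds reads of the viral fusion was not tested. The share differed over the 4 groups (exact permutation test, adjusted p = 0.0395), a call that was lost in 10 of 12 fits without a single library, and not among tumours alone (exact permutation test, adjusted p = 0.2). The means per coding length were 60.8, 48.9 and 59.0% in the tumours in that order and 43.9% in naive cortex, so which of both genes was higher in YAP1-FAM118B and naive depended on the length used.

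The balance of co-activators to TEADs, as counted on Yap1 and Wwtr1, was lowest in YAP1-TFE3. The viral fusions contain YAP1 too, and whether their reads are among these counts was not tested. In tumours the ratio may thus leave out the fusion or hold a part of it. The log2 ratio of Yap1 plus Wwtr1 to the TEAD sum was 0.78, 1.61 and 1.16 in YAP1-MAMLD1-dR3R1, 0.47, 0.52 and 0.53 in YAP1-FAM118B and −0.32, −0.20 and −0.41 in YAP1-TFE3, against 1.34, 1.13 and 1.14 in naive cortex. As geometric means of the linear ratios these are 2.27, 1.42 and 0.807 in the tumours and 2.31 in naive cortex. YAP1-MAMLD1-dR3R1 spanned the naive values, YAP1-FAM118B lay below both, and YAP1-TFE3 lay below all (exact permutation test over 4 groups, adjusted p = 0.00152, and over tumours, adjusted p = 0.0125). Per coding length the mean log2 ratios were 0.42, −0.25 and −1.13 in the tumours and 0.42 in naive cortex.

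Vgll4 was lower relative to the TEADs in all tumours but 1 library, although its own level was higher than in naive cortex. The log2 ratio of Vgll4 to the TEAD sum was −1.29, −0.45 and −1.21 in YAP1-MAMLD1-dR3R1, −1.43, −1.12 and −1.42 in YAP1-FAM118B and −2.76, −2.74 and −2.02 in YAP1-TFE3, against 0.07, −0.20 and −0.51 in naive cortex. YAP1-MAMLD1-dR3R1 replicate 2 was within the naive range, and the YAP1-TFE3 libraries were below all others (exact permutation test over 4 groups, adjusted p = 0.00152, and over tumours, adjusted p = 0.015). As geometric means of the linear ratios these are 0.505, 0.4 and 0.176 in the tumours and 0.864 in naive cortex. A change in mRNA ratio says nothing of protein amounts, which were not measured.

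**Figure D4:**
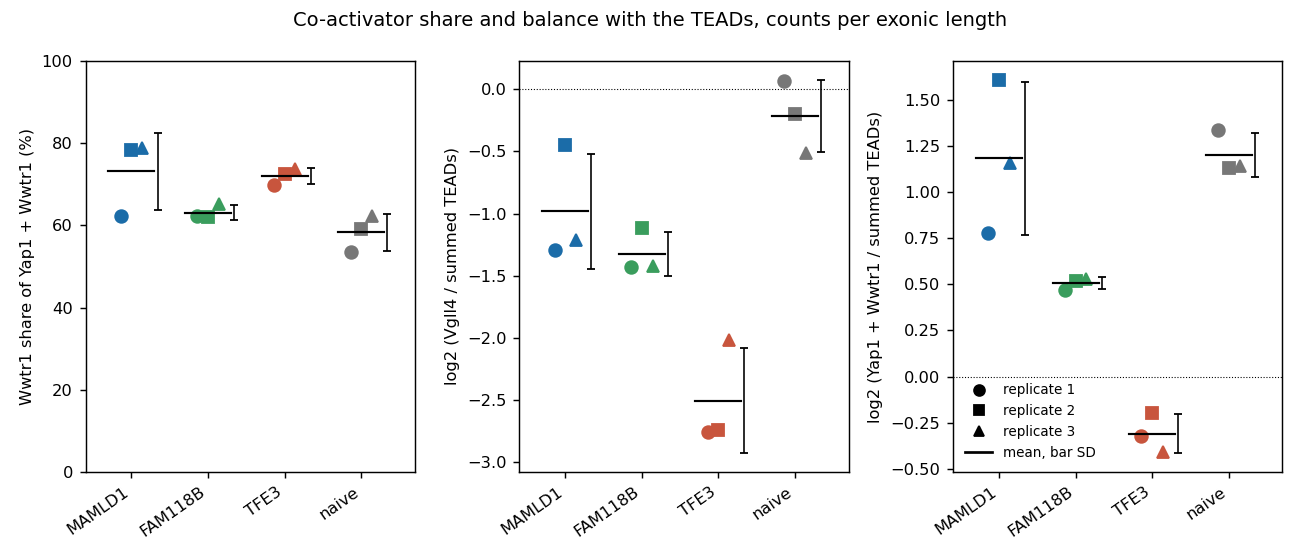
Wwtr1 share of the summed Yap1 and Wwtr1 level in % (left), log2 ratio of Vgll4 to the summed TEADs (middle) and log2 ratio of Yap1 plus Wwtr1 to the summed TEADs (right), all per exonic length, with a marker per replicate, a line for the mean and a bar for the SD (n = 3). Both ratios are lowest in YAP1-TFE3 tumours, with means of −2.51 and −0.31. Whether the Yap1 counts hold reads of the viral fusion was not tested.

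Within groups, some libraries were high or low for several of the 7 genes at once. YAP1-FAM118B replicate 3 had the highest value of its group for all 7 genes, and replicate 2 the lowest for all but Tead4. The summed fibroblast and pericyte markers of that group were 10800, 3610 and 15000 CPM in replicates 1, 2 and 3, and the summed neuron markers 4220, 5420 and 3590 CPM. YAP1-TFE3 replicate 3 had the lowest Tead2, Tead3, Tead4, Yap1 and Wwtr1 of its group and the highest Tead1 and Vgll4. Its microglia and macrophage markers summed to 3790 CPM, against 1420 and 1210 CPM in replicates 1 and 2. The part of these markers in the spread of the 7 genes was not tested. Without YAP1-TFE3 replicate 3 or any other single library, each YAP1-TFE3 gene remained higher than naive, with an edgeR adjusted p of at most 0.0133.

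Likeness of pattern was measured as the root-mean-square difference of gene-centred log2 CPM over the 12 libraries, where 0 means the same profile. Among the 7 genes, Yap1 and Vgll4 were closest (0.31), followed by Tead2 and Tead3 (0.43), and Tead3 and Tead4 were farthest apart (2.25). Among 12516 other genes, those near Tead1 included Msrb3, a methionine sulfoxide reductase (0.25), and Adamtsl1 (0.28), where the median over all candidates was 1.52. Nearest to Tead4 were Frk, a tyrosine kinase (0.63), Ptpn14, a phosphatase that binds YAP1 (0.73), and Lpin3, a phosphatidate phosphatase (0.73), with a median of 2.43. Tead2 was nearest to Ephb4, a receptor of ephrins (0.34), Nradd (0.35) and Copz2, a coatomer subunit (0.39), with a median of 1.40. Tead3 was nearest to Nradd (0.37), Creb3l1, a membrane-bound transcription factor (0.42), and Trim47 (0.46), with a median of 1.55.

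For the co-activators, Yap1 was nearest to Ryk, a receptor of WNT ligands (0.18), Rras2, a small GTPase (0.20), and Uck2, a uridine-cytidine kinase (0.21), with a median of 1.01 over all candidates. Wwtr1 was nearest to Slc10a3 (0.13), Mtbp (0.19) and Nedd9, a scaffold protein of focal adhesions (0.20), with a median of 1.28. Vgll4 was nearest to Dusp11 (0.13), the G protein subunit gene Gnai3 (0.15) and Pdia3, a disulfide isomerase of the endoplasmic reticulum (0.16), with a median of 0.93. The gap between tumour and naive libraries, which many genes have, enters each of these distances.

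Other genes of the pathway were described from lists written from general knowledge. Of 25 Hippo kinases and upstream regulators, 15 were higher and 3 lower in YAP1-MAMLD1-dR3R1 than in naive cortex, 13 higher and 1 lower in YAP1-FAM118B, and 20 higher and 3 lower in YAP1-TFE3. Their median log2 fold changes were 0.81, 0.52 and 1.53, against 0.06, −0.05 and 0.23 over all genes. Of all genes tested, 34.4%, 21.3% and 40.6% were called higher and 28.8%, 8.45% and 30% lower, in the same order. Lats2, the kinase that phosphorylates YAP1 and TAZ, rose by 2.56 ± 0.29, 1.46 ± 0.28 and 3.59 ± 0.30, and Amotl2, an angiomotin that holds YAP1 in the cytoplasm, by 3.94 ± 0.30, 3.51 ± 0.29 and 4.44 ± 0.30. The LIM protein gene Ajuba, which dampens LATS kinases, rose by 6.49 ± 0.50 in YAP1-TFE3, the greatest rise on the list there, and Dchs1, a protocadherin upstream of Hippo, changed by −1.17 ± 0.25. Taok2, a kinase upstream of the Hippo kinases, was lower in each fusion, with −0.69 ± 0.13, −0.39 ± 0.13 and −0.55 ± 0.13.

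Of 22 YAP/TEAD targets, 16 were higher and 1 lower in YAP1-MAMLD1-dR3R1, and 15 higher and none lower in YAP1-FAM118B. In YAP1-TFE3, 17 were higher and 4 lower. The median log2 fold changes were 2.37, 1.57 and 3.33, against 0.06, −0.05 and 0.23 over all genes. Of all genes tested, 34.4%, 21.3% and 40.6% were called higher and 28.8%, 8.45% and 30% lower, in the same order. Lats2, Amotl2, Ajuba and Ptpn14 stand on both lists. Ankrd1, a classic target, was at 129, 218 and 728 CPM in the 3 fusions, against 0.305 CPM in naive cortex. The second greatest rise on the list was that of the kinase gene Nuak2 in YAP1-MAMLD1-dR3R1 (5.06 ± 0.52), of Ctgf, a secreted matrix protein, in YAP1-FAM118B (5.03 ± 1.00) and of Ajuba in YAP1-TFE3. Fjx1, which fell by 1.28 ± 0.38 on the log2 scale, was the target called lower in YAP1-MAMLD1-dR3R1, and Rbms3 and Arhgef17 fell most in YAP1-TFE3 (−1.53 ± 0.50 and −1.53 ± 0.51).

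Calls on the other TEAD-binding cofactors went in both directions, as they did over all genes. Of 8 such genes 7 passed the filter, and 2 were higher and 2 lower in YAP1-MAMLD1-dR3R1, 1 higher and 1 lower in YAP1-FAM118B and 2 higher and 4 lower in YAP1-TFE3. Vgll3, a vestigial-like cofactor that binds TEADs, was at 159, 119 and 54 CPM in the fusions, against 5.06 CPM in naive cortex (log2 fold changes of 4.97 ± 0.38, 4.55 ± 0.37 and 3.41 ± 0.35). In contrast to Tead1 and Tead4, it was lower in YAP1-TFE3 than in YAP1-MAMLD1-dR3R1 (−1.56 ± 0.32, edgeR adjusted p = 0.0041) and than in YAP1-FAM118B (−1.14 ± 0.32, edgeR adjusted p = 0.0139). Ncoa1, a steroid receptor co-activator, was lower than naive in each fusion (−1.37 ± 0.16, −0.77 ± 0.16 and −1.51 ± 0.16). Of all genes tested, 34.4%, 21.3% and 40.6% were called higher and 28.8%, 8.45% and 30% lower in the 3 fusions, in the same order. Whether the counts of these cofactors differ from those shares was not tested.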

How the data were processed

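RNA sequencing of 12 mouse samples gave a table of raw read counts per gene symbol for each. These deposited counts came from HTSeq and build mm10, per the submitters' processing notes, and no further step by the authors is recorded. Aligner, annotation, strand setting and versions were not given in these sources, so reads of overlapping or antisense genes cannot be told apart.

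Counts were tested with edgeR 4.0.16 in R 4.3.3 (limma 3.58.1). The filterByExpr filter, at a minimum count of 10, kept 16364 genes, and TMM factors scaled the libraries. A quasi-likelihood model of all 12 libraries, with a coefficient per group, gave 6 contrasts, adjusted over all genes tested by Benjamini-Hochberg with a threshold of 0.05. The SE is the log2 fold change divided by the square root of F. Shares and ratios used counts per exonic length of GENCODE M21 (GRCm38) and an exact permutation test of F over 369600 partitions of the libraries (smallest p 6.49e-05) or 1680 of the tumours (smallest p 0.00357), adjusted over 7 quantities. The edgeR and share steps were tested on simulated data.

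The rule for named genes took all 7 members, Lats2, Amotl2, Ankrd1 and Vgll3, at most the 2 called genes with the largest and the 2 with the smallest log2 fold change of each list against naive, and the 3 genes of most like pattern with a mean of at least 5 CPM, of which 1 gene is not reported here. For likeness, log2 CPM used a prior count of 2. Members and lists were chosen with earlier results of these data known.

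Replicates 1, 2 and 3 carry the same numbers in each group. Deviations of same-numbered libraries correlated at −0.11 to 0.32 (median 0.04), with 4 of 18 over 0.1, all 4 between tumour libraries. Those of libraries with other numbers correlated at −0.42 to 0.36 (median −0.02), with 6 of 36 over 0.1. The numbers were not taken as pairs. Alternatives were RLE and upper-quartile factors, library size alone, no filter, 1 CPM in 3 libraries, DESeq2 1.42.0, robust dispersion, only the groups compared, a replicate block, each library left out, and shares from raw counts. Coding lengths and a test of tumours alone for the shares were added after seeing the data. Within groups, libraries differed beyond sampling noise (chi-square per gene of 20 to 193).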

Additional observations from a re-analysis of the deposited data

Results flagged for a closer look

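By a test of the difference itself in the edgeR fit, fusions differed in their effect on Tead1, Tead4 and Wwtr1. In YAP1-FAM118B against YAP1-MAMLD1-dR3R1, 1 of the 7 was called lower, as were 13.5% of all genes. In YAP1-TFE3, 2 of the 7 were called higher than in YAP1-MAMLD1-dR3R1 (22.6% of all genes) and 3 than in YAP1-FAM118B (28%). Whether these counts exceed the shares of all genes was not tested. Tead4 was higher in YAP1-TFE3 than in YAP1-MAMLD1-dR3R1 tumours by 4.24 on the log2 scale and than in YAP1-FAM118B tumours by 3.35. Tead1 was higher in YAP1-TFE3 than in the same groups by 1.80 and 1.67. Wwtr1 was lower in YAP1-FAM118B than in YAP1-MAMLD1-dR3R1 tumours, with a difference of −0.88, and higher in YAP1-TFE3 than in YAP1-FAM118B tumours by 0.97. The first Wwtr1 call was lost in 11 of 22 alternative settings and the second in 5 of 22. The differences of all 3 genes share libraries, since each fusion group stands in 2 of the pairs. Groups of 3 were not searched for single outlying libraries.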

How the results depend on the processing

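Apart from Tead4 in YAP1-MAMLD1-dR3R1 and YAP1-FAM118B tumours, the fold changes of the 7 genes against naive kept their direction and call under all 22 alternatives, as did Tead1 and Tead4 in YAP1-TFE3 against the other fusions. The number of the 7 genes called between YAP1-FAM118B and YAP1-MAMLD1-dR3R1, 1 in the fit reported, was 0 with no filter, with 1 CPM in 3 libraries, with only the groups compared and without both libraries with Xist and Ddx3y counts, and between 0 and 2 when single libraries were left out. The cause was not tested. The Wwtr1 share of the co-activators, with an exact permutation adjusted p of 0.0395, had 0.2 among tumours only, 0.1 without both of those libraries and 0.00114 to 0.1 without single libraries. The Tead1 share had an exact permutation adjusted p of 0.0429 from raw counts, with means of 72.7% for YAP1-MAMLD1-dR3R1, 79.9% for YAP1-FAM118B and 84.5% for YAP1-TFE3, against 83.5% for naive cortex, so that the group with the highest share changed from naive to YAP1-TFE3. With the replicate number as a block, Tead4 in YAP1-MAMLD1-dR3R1 against naive was 1.88 (edgeR adjusted p = 0.0841), and no other call on the 7 genes changed. The number of all genes called between YAP1-FAM118B and YAP1-MAMLD1-dR3R1 was 4293, or 1666 without YAP1-MAMLD1-dR3R1 replicate 2, 1798 without its replicate 3, 1753 and 1932 without YAP1-FAM118B replicates 1 and 2, and 1010 without both libraries with Xist and Ddx3y counts. In YAP1-FAM118B against naive it was 4861, or 3106 and 2979 without YAP1-FAM118B replicates 1 and 3. Other scalings shifted the median log2 fold change of all genes by up to −0.21, in YAP1-TFE3 against YAP1-FAM118B with library size alone. Shares with 3 times the protein length were not run, since no protein sequences were used here. Depth limits Tead4 most, at 4 to 24 counts per naive library.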
